A study of Mus musculus with 60 samples.

Results

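The 10 genes examined here encode the enzymes of fatty acid synthesis and 2 of their regulators, Fasn, Acaca, Acacb, Acly, Elovl6, Scd1, Scd2, Srebf1, Me1 and Thrsp. Fasn, Acaca, Acly and Srebf1 lie on chromosome 11 of the mouse, Scd1 and Scd2 on 19, Acacb on 5, Elovl6 on 3, Me1 on 9 and Thrsp on 7. They were taken by name, as all 25 probe sets that the annotation of the array assigns to 1 of these symbols, among 18193 genes and 34945 probe sets with a single symbol. RNA was profiled on 60 Affymetrix Mouse Genome 430 2.0 arrays, 5 for each of 4 groups in heart, gastrocnemius muscle and neocortex, with RNA of 1 mouse on each array. All mice were males of the F1 hybrid of C57BL/6 and C3H/He, with no engineered allele. Old CR mice (30 months) had eaten a calorie restricted diet since 14 months of age, old resveratrol mice (30 months) a control diet with 4.9 mg per kg per day of resveratrol since the same age, and old control mice (30 months) the control diet. Young control mice were 5 months old and ate the control diet too. The labels give the restriction as 40%, whereas the weekly energy allowances in the methods amount to a smaller reduction. Nothing in the sources used here says whether the 3 tissues came from the same mice.

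Values are linear signals of the array software, scaled by the authors to a trimmed mean of 500 on every array. Each gene was read from the brightest of its probe sets over the 60 arrays, and was tested where its mean in a tissue reached the 40th percentile of its tissue. All 10 genes were tested in heart and muscle. In neocortex 9 were tested, since Acacb lay under the cut-off. At the level of probe sets, 21 of 25 passed in heart, 21 in muscle and 18 in neocortex. Differences are in log2 units (1 unit is a doubling) with the SE of the model, and a gene is said to have risen or fallen where the Benjamini-Hochberg adjusted p of limma over all genes of the tissue was under 0.05. Intervals are 95% confidence intervals. The two-sided test compares 5 mice with 5. In these whole tissues, fewer cells of a type and less RNA per cell cannot be told apart.

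2 technical measures moved with the groups. Beta-actin is read near both ends of its transcript, and the excess of the 3' end in log2 signal, which grows as RNA degrades, averaged 0.787 in old CR hearts, 0.819 in old resveratrol hearts, 1.39 in old control hearts and 0.719 in young control hearts. In neocortex it averaged 0.708, 0.887, 0.546 and 0.608 in the same order of groups. In muscle it averaged 0.183, 0.165, 0.255 and 0.061. There it spread widely within the controls, over -0.175 to 1.40 in old control muscle and -0.468 to 1.11 in young control muscle. The poly-A transcripts spiked in before labelling had a mean log2 signal of 9.92 in old CR muscle and 10.03 in old resveratrol muscle, against 6.78 in old control muscle and 7.41 in young control muscle. In the same order of groups their mean was 9.40, 9.52, 10.13 and 9.81 in heart and 9.14, 9.81, 8.77 and 9.23 in neocortex. Their part in the results was not tested.

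Fatty acid synthesis turns surplus carbohydrate into fat. Citrate that leaves the mitochondrion is split by ATP citrate lyase (Acly) to acetyl-CoA, acetyl-CoA carboxylase (Acaca) converts this to malonyl-CoA, and fatty acid synthase (Fasn) builds palmitate from both with NADPH, part of which comes from malic enzyme (Me1). Palmitate is lengthened by the elongase Elovl6 and desaturated by the stearoyl-CoA desaturases Scd1 and Scd2. Acacb is the carboxylase at the mitochondrial membrane, whose malonyl-CoA restrains the entry of fatty acids into oxidation. Srebf1 encodes SREBP-1, a transcription factor for many of these genes, and Thrsp encodes Spot 14, a small protein of lipogenic tissues that responds to thyroid hormone and carbohydrate. Liver and adipose tissue are the main sites of the pathway, adipocytes lie between the fibres of muscle and around the heart, and in brain the pathway supplies lipids of myelin and neuronal membranes.

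In heart, Thrsp and Acly followed Fasn most closely within groups among the members with a promoter entry, so their promoters are shown, as RefSeq windows of GRCm38.p6 that run from 250 bases before a transcript start to 50 after it. The start used for Fasn lies inside the listed gene, which reaches 120825166, and those of Thrsp and Acly are at the listed ends of the genes. All 3 genes lie on the minus strand, and capitals mark the CCAAT box on either strand (CCAAT or ATTGG).
Fasn, chr11:120824498-120824797: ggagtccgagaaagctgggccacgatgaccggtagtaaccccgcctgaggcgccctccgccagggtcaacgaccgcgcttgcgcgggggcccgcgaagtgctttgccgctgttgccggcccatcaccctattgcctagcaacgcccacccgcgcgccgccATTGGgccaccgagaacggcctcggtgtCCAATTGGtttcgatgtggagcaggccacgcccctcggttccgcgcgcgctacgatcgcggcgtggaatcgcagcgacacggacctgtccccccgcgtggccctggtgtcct
Thrsp, chr7:97417501-97417800: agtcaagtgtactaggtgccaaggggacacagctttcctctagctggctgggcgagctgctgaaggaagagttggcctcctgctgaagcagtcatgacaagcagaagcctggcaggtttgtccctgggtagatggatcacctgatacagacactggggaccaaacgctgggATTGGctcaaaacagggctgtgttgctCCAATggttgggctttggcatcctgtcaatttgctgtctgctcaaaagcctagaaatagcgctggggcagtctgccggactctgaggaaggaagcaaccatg
Acly, chr11:100527951-100528250: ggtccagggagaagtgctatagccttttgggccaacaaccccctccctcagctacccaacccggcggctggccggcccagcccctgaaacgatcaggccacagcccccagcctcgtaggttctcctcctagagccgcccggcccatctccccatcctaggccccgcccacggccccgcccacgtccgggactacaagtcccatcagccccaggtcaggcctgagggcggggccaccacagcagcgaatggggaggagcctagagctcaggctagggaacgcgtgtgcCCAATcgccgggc
The CCAAT box, a binding sequence of the factor NF-Y, occurs 3 times in the Fasn window, where a forward and a reverse copy overlap, 2 times in that of Thrsp and 1 time in that of Acly. Of the 10 genes, 8 had windows (11 in all), and 7 of these 11 windows held the box on either strand, against 37.4% of all 32851 windows. The GC box GGGCGG occurred in 4 of the 11 windows and in 35.7% of all. The sterol regulatory element was searched as TCACNCCAC and the E box as CACGTG, on both strands. Neither had a match in the 11 windows, and they matched in 1.24% and 7.15% of all windows. Scd1 and Scd2 were not analysed in this way.

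Among young control mice, the tissues differed in the level of several members. Scd2, the desaturase best known from brain, was highest in neocortex, with a log2 signal of 13.87 ± 0.16 there, against 11.77 ± 0.34 in muscle and 11.01 ± 0.79 in heart (SD, n = 5 each). Neocortex exceeded muscle by 2.11 and heart by 2.86, and muscle exceeded heart by 0.76. Srebf1 was highest in muscle, at 12.07 ± 0.35, followed by heart at 10.67 ± 0.14 and neocortex at 9.78 ± 0.25, and each step passed the test. Scd1, the desaturase of adipose tissue and liver, reached 11.11 ± 0.36 in neocortex, 13.97 ± 0.58 in muscle and 14.13 ± 1.31 in heart, and muscle and heart lay within their spread of each other.

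Thrsp was highest in heart (12.34 ± 1.30), then muscle (10.57 ± 0.74) and neocortex (9.21 ± 0.11), with a difference past the threshold at each step, and Me1 in muscle (12.98 ± 0.18), then heart (12.29 ± 0.69) and neocortex (10.28 ± 0.18), likewise. Acacb was close in muscle (11.82 ± 0.22) and heart (11.54 ± 0.46), and its neocortex signals, 5.44 to 16.6 in young controls, lay under the cut-off for testing of 57.3. Fasn was lower in neocortex (10.81 ± 0.22) than in heart (11.98 ± 1.38), with muscle between them (11.28 ± 0.58) and neither step from it past the threshold. Acly was lower in muscle (11.19 ± 0.71) than in heart (12.33 ± 1.04), and the differences of neocortex (11.64 ± 0.06) from both missed the threshold. For Acaca and Elovl6 no pair of tissues passed. In counts, 5 of 10 members differed between muscle and heart, 6 of 9 between neocortex and heart, and 5 of 9 between neocortex and muscle, where 51.1%, 68.4% and 70.3% of all 15035 genes did. This model treats the tissues as if taken from separate mice.

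**Figure D1:**
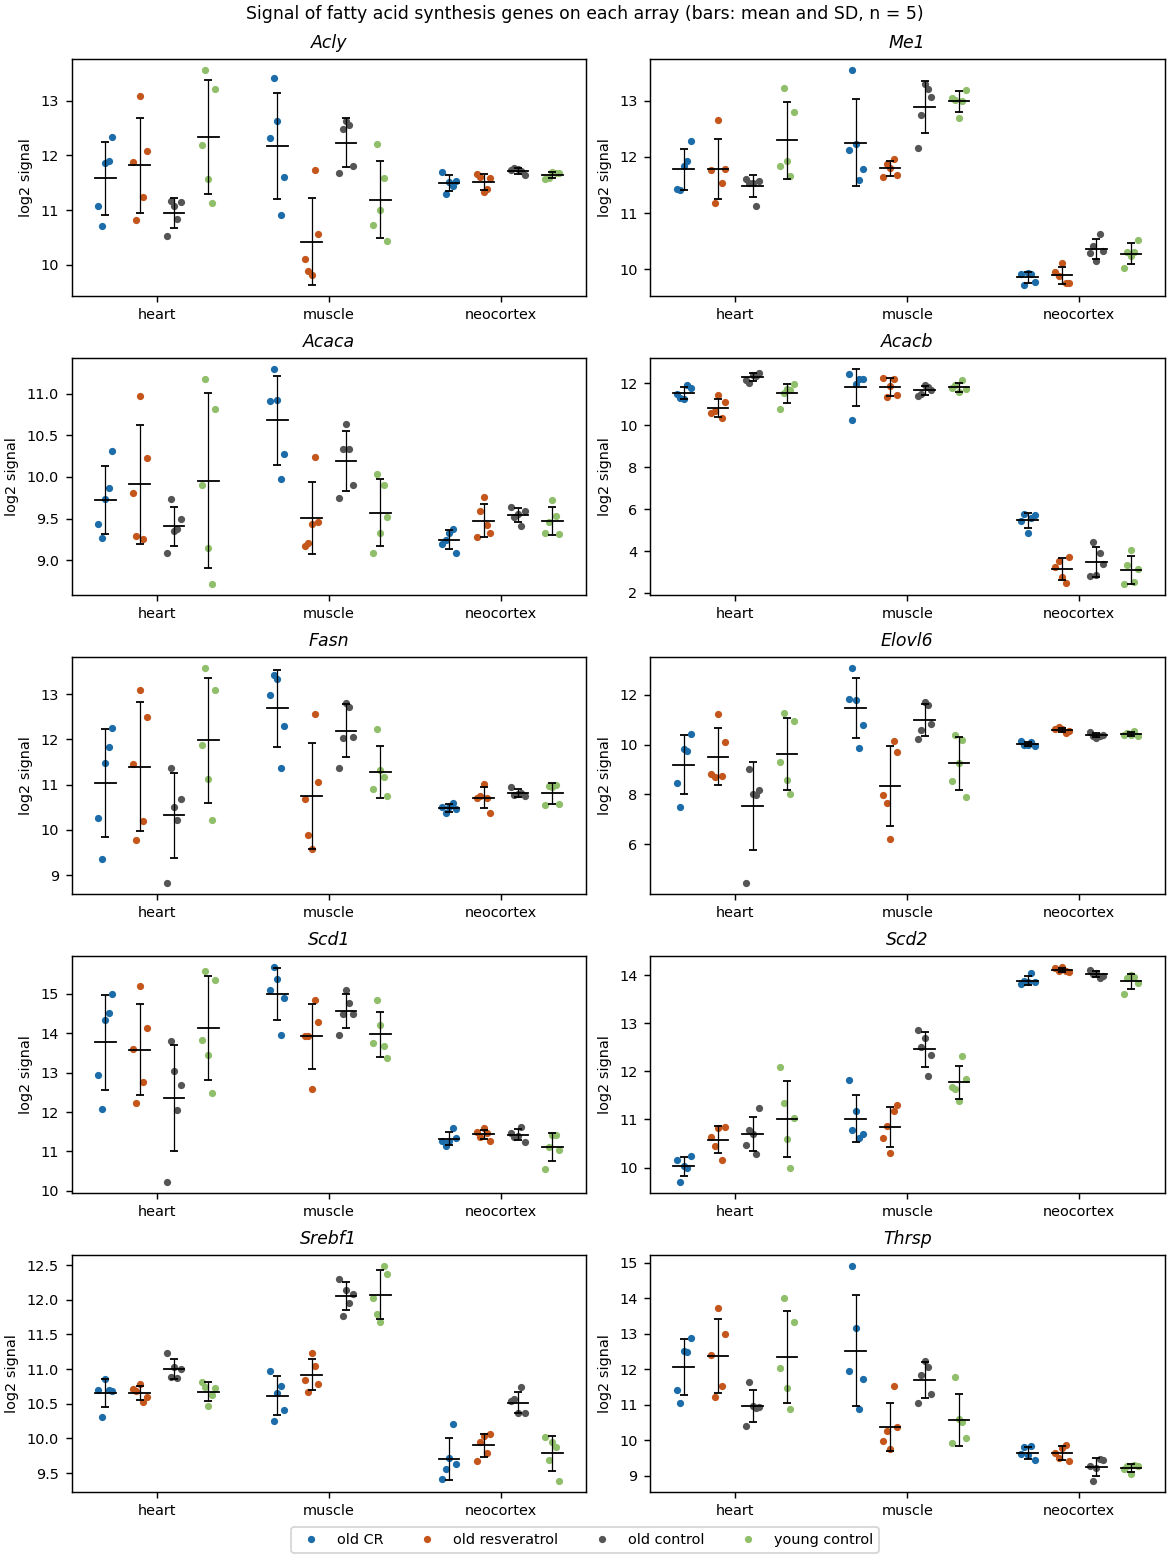
Log2 signal of each fatty acid synthesis gene on each array (vertical axis, own scale in each panel), by tissue and group (horizontal axis), 1 point an array, with bars for the mean and SD of 5 arrays. In heart and muscle the arrays of 1 group spread over several log2 units for Fasn, Elovl6, Scd1 and Thrsp, while neocortex values stay close together.

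With age, the enzymes Acly and Me1 fell in the heart of old control mice, and Acacb and Srebf1 rose. Of the 10 members 2 rose and 2 fell, where 10.8% of all genes tested changed, and the median difference of the members was -1.09, against 0.03 over all genes. Acly had signals of 1478, 2296, 2162, 1829 and 2259 in old control hearts, against 4679.6, 12129, 3038, 2228 and 9498 in young control hearts. All but 1 of the young hearts exceeded the old ones, and the fall was -1.38 (SE 0.40, adjusted p = 0.025). Me1 had signals of 3134, 2982, 2982, 2246 and 3053 in old control hearts, against 3668, 9613, 3904, 3227 and 7137 in young control hearts, with no overlap, and fell by 0.81 on the log2 scale (SE 0.25, adjusted p = 0.0406). With the probe sets of each gene averaged, Acly differed by -0.71 (adjusted p = 0.114) and Me1 by -0.54 (adjusted p = 0.248), and by the methods' t-test the adjusted p was 0.15 for Acly and 0.194 for Me1, so that both calls were lost.

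The largest differences with age in heart belonged to members that did not pass the threshold. Elovl6 had signals of 21.8, 517, 255, 249 and 288 in old control hearts, against 634, 2454, 382, 260.0 and 1995 in young control hearts. Its difference was -2.11 (adjusted p = 0.0616), with an interval of -3.60 to -0.62. The differences were -1.77 (adjusted p = 0.0785) for Scd1, -1.66 (adjusted p = 0.0982) for Fasn and -1.38 (adjusted p = 0.0686) for Thrsp. Acaca and Scd2 differed by -0.54 and -0.32. The absence of a single young control heart, replicate 4, moved these values. It was the lowest young heart for Fasn, Elovl6, Scd1 and Thrsp, and 7 members changed in its absence. Without it, Fasn differed by -2.10 (adjusted p = 0.0366), Elovl6 by -2.51 (0.0324), Scd1 by -2.19 (0.0328) and Thrsp by -1.75 (0.02). Conversely the count was 1 without young control replicate 2 or 5 or old control replicate 1, and 2 without old control replicate 3, 4 or 5. Acly lost its call without young control replicate 2 (0.0905) or 5 (0.069) or old control replicate 1 (0.0625) or 4 (0.0523), and Me1 without young control replicate 2 or 5 or any 1 of the old controls, at adjusted p values of 0.0571 to 0.14. Without old control replicate 2, Elovl6 (0.0389) and Scd1 (0.0459) passed, and without young control replicate 3, Thrsp did (0.0473).

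Acacb and Srebf1 went the other way. Acacb, the mitochondrial carboxylase, had signals of 2915, 2571, 2418, 3863 and 3503 on the old CR arrays, 1540.0, 1672, 2759, 1306 and 2195 on the old resveratrol arrays, 4661, 4217, 5449, 5215 and 5846 on the old control arrays and 1737, 2998, 3359.8, 3293 and 3999 on the young control arrays. Every old control heart lay above every other heart. Acacb was higher in old control than in young control hearts by 0.77 (SE 0.19, adjusted p = 0.0112), and fell by 0.75 under CR (SE 0.19, adjusted p = 0.0065) and by 1.47 under resveratrol (SE 0.19, adjusted p = 9.59e-06). CR hearts exceeded resveratrol hearts by 0.72 (SE 0.19, adjusted p = 0.0346), a call that was lost without old CR replicate 1, 4 or 5 or old resveratrol replicate 1, 2 or 4, at adjusted p values of 0.0554 to 0.115. Averaged with its dim second probe set, Acacb lost all 4 calls, at differences of 0.35 with age (adjusted p = 0.527), -0.04 under CR (adjusted p = 0.948), -0.22 under resveratrol (adjusted p = 0.693) and 0.18 between the diets (adjusted p = 0.838). Srebf1 had signals of 1663, 1271, 1853, 1655 and 1652 on the old CR arrays, 1672, 1643, 1769, 1473 and 1545 on the old resveratrol arrays, 2402, 1900.1, 2100.2, 1883 and 2040.5 on the old control arrays and 1804, 1707, 1411, 1576 and 1703 on the young control arrays. Again the old control hearts stood above all others. Srebf1 rose with age by 0.33 (SE 0.11, adjusted p = 0.0437) and fell by 0.36 under CR (adjusted p = 0.0163) and by 0.35 under resveratrol (adjusted p = 0.0227). The age difference and both diet differences share the 5 old control hearts. The age call of Srebf1 lay at the threshold and was lost without any 1 of 12 arrays (young control replicates 2 to 5, old control replicates 1, 3 and 5, old CR replicates 1, 4 and 5 and old resveratrol replicates 1 and 2), at adjusted p values of 0.0506 to 0.125. The diet calls were lost without old control replicate 1 (adjusted p = 0.0572 under CR and 0.0784 under resveratrol), old CR replicate 2 (0.0631) or old resveratrol replicate 4 (0.0664).

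Under the diets, the other members of the heart except Scd2 had higher mean signals than in old controls, and of these only Thrsp passed the test. Under CR no member rose and 2 fell, the pair above, where 22.0% of all genes changed, and the median of the members was 0.47, with a median near 0 over all genes. Under resveratrol 1 rose and 2 fell, where 17.5% of all genes changed, and the median was 0.68, against 0.01. Thrsp had signals of 2736, 2118, 5831, 5735 and 7572 on the old CR arrays, 5397, 2391, 13545, 2926 and 8187 on the old resveratrol arrays, 1348, 3197, 1989.5, 1910.0 and 1959 on the old control arrays and 4227, 16324, 2825, 1881 and 10391 on the young control arrays. Old resveratrol hearts exceeded old control hearts by 1.41 (SE 0.49, adjusted p = 0.0454), with overlap between the groups, and old CR hearts differed by 1.10 (adjusted p = 0.107). The call of Thrsp ended without any 1 of old control replicates 1, 3, 4 and 5, old CR replicates 3 and 4 and old resveratrol replicates 1, 3 and 5, with old control replicate 1 (adjusted p = 0.108) and old resveratrol replicate 3 (0.146) among them. It also ended with averaged probe sets (0.80, adjusted p = 0.202) and by the methods' t-test (0.103). Fasn had signals of 1221, 654, 2838, 3640.1 and 4875 on the old CR arrays, 2809.9, 874, 8735, 1172 and 5754 on the old resveratrol arrays, 455, 2642, 1450.4, 1197 and 1645 on the old control arrays and 3782, 12280.5, 2251, 1188 and 8739 on the young control arrays. The groups overlapped, and the differences were 0.71 (adjusted p = 0.464) under CR and 1.08 (adjusted p = 0.277) under resveratrol.

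Elovl6 differed by 1.68 under CR (interval 0.19 to 3.17) and by 2.0 under resveratrol (0.51 to 3.49), and Scd1 by 1.41 and 1.23, none past the threshold. Acly differed by 0.63 and 0.87, Me1 by 0.29 and 0.30 and Acaca by 0.31 and 0.50. Scd2 differed by -0.67 (adjusted p = 0.0551) under CR, where its CR hearts lay under all old control hearts, and by -0.11 under resveratrol. The other 2 probe sets of Scd2 had the opposite sign under CR, at 0.64 and 0.77, neither past the threshold. Without old control replicate 1, 1 member, Acacb, passed under CR and the same 1 under resveratrol. Elovl6 passed under CR without old CR replicate 2 (adjusted p = 0.0499), and under resveratrol without young control replicate 1 (0.0496), old control replicate 2 (0.0318) or old CR replicate 2 (0.0495). Scd2 passed under CR without young control replicate 1 (0.013) or 4 (0.0216) or old control replicate 4 (0.0395). Between the diets only Acacb differed among the 10 members, where 4.0% of all genes did.

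As a mean, adipocyte markers moved with these values in heart. Of 13 listed markers 11 are on the array and 10 passed the cut-off, and the leptin gene Lep did not. Their summed signal ranged over 54470.0 to 79435 in old CR hearts, 47591 to 76915 in old resveratrol hearts, 34226 to 48895 in old control hearts and 40249 to 84269 in young control hearts. Their mean log2 signal was 10.67 ± 0.86, 10.37 ± 0.66, 9.33 ± 0.90 and 10.50 ± 0.88 in the same order (SD, n = 5). None was at 0 on every array of a group. With age 1 of the 10 markers rose and 1 fell, under CR 6 rose, and under resveratrol 2 rose and 1 fell. Of all genes 10.8%, 22.0% and 17.5% changed in these comparisons. The median differences of the markers were -1.32, 1.05 and 0.85. The marker that rose with age and the 1 that fell under resveratrol went against these medians. Adipoq, the adipocyte hormone adiponectin, differed by -2.88 with age (not past the threshold) and rose by 3.06 under CR. Car3, a carbonic anhydrase of adipocytes that skeletal muscle also makes, fell by 1.97 with age and rose by 2.48 under CR and 2.08 under resveratrol. Markers of hepatocytes, another lipogenic cell type, rose as well, 6 of 7 under CR and 3 of 7 under resveratrol, beside the same shares of all genes. Their summed signal was 4259 to 7296 in old CR hearts, 1314 to 7253 in old resveratrol hearts, 747 to 1126 in old control hearts and 841 to 1102 in young control hearts. Of the blood markers only Alas2, the heme synthesis enzyme of red cells, passed the cut-off. Its log2 signal was 13.21 ± 0.86 in old CR hearts, 12.33 ± 0.63 in old resveratrol hearts, 11.13 ± 0.32 in old control hearts and 12.24 ± 0.96 in young control hearts (SD, n = 5 each), and it rose by 2.08 under CR and by 1.2 under resveratrol. The part of these markers in the result was not tested, nor that of the beta-actin values or of the poly-A level.

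**Figure D2:**
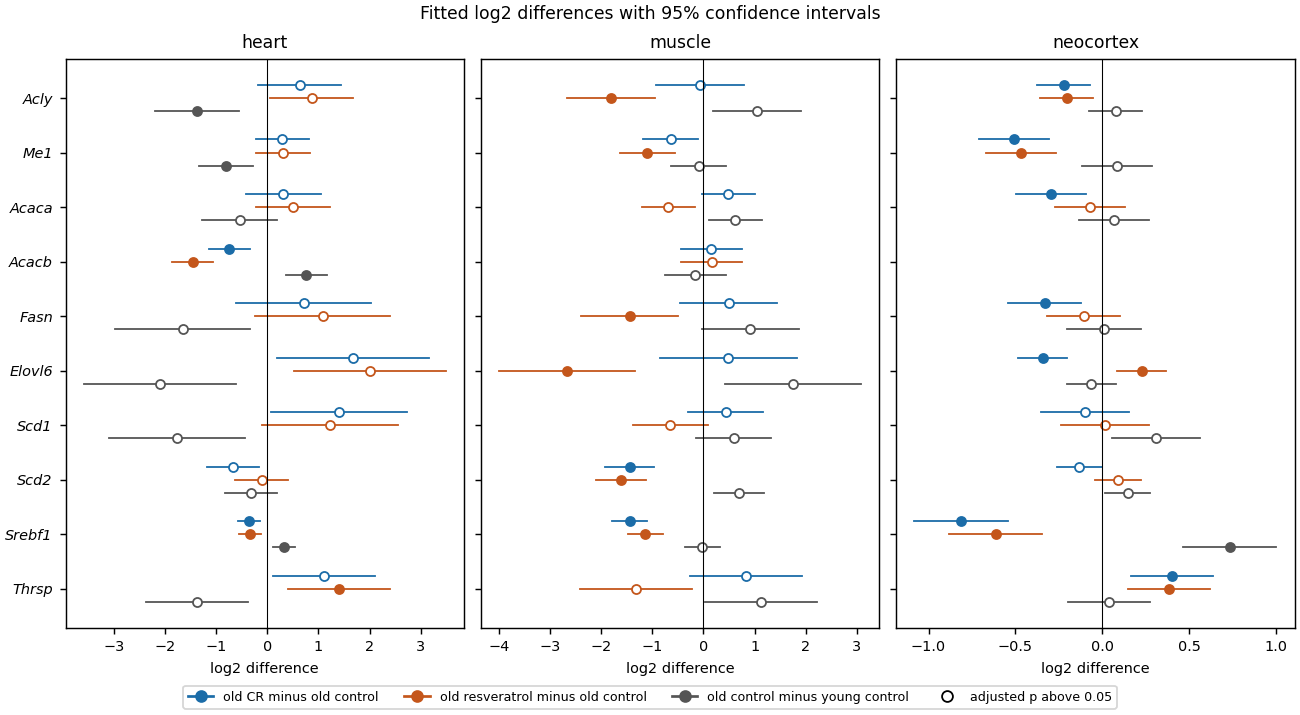
Fitted log2 differences (horizontal axis) of the fatty acid synthesis genes (rows) in heart, muscle and neocortex, for old CR minus old control, old resveratrol minus old control and old control minus young control, with lines for 95% confidence intervals and filled points for an adjusted p under 0.05. Intervals are far narrower in neocortex, whose axis spans a smaller range, and Acacb is not shown there because it lay under the cut-off.

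In muscle, no member passed the threshold with age, Scd2 and Srebf1 fell under CR, and 6 members fell under resveratrol. For age, 0 of 10 members passed the limma threshold (0.429% of all genes did), although 5 had an unadjusted p under 0.05, and the methods' t-test after adjustment also gave 0. The median of the members was 0.66, against 0.03 over all genes. Elovl6 differed most, by 1.75 (interval 0.42 to 3.08, adjusted p = 0.224), followed by Thrsp at 1.12, Acly at 1.04 and Fasn at 0.92.

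Srebf1 separated the diets from the controls in muscle. Its signals were 2014, 1226, 1618, 1732 and 1366 on the old CR arrays, 1838, 1637, 2412, 2123 and 1766 on the old resveratrol arrays, 5035, 3489.8, 4534, 3979.8 and 4356 on the old control arrays and 4186, 3545, 3275, 5758 and 5278 on the young control arrays. All 10 arrays of the diets lay below all 10 of the controls. Srebf1 fell by 1.44 under CR (SE 0.17, adjusted p = 3.24e-06) and by 1.13 under resveratrol (SE 0.17, adjusted p = 9.07e-05), to 0.369 and 0.456 of the old control level, and its age difference was -0.02 (interval -0.36 to 0.32). Scd2 was likewise lower under both diets. Its signals were 3596, 1771, 2318, 1562 and 1670.5 on the old CR arrays, 1566, 1852, 1255, 2329 and 2523 on the old resveratrol arrays, 7427, 5862, 6614, 3833 and 5162 on the old control arrays and 3277, 3183, 2674, 5082 and 3651 on the young control arrays. Each diet array lay under each old control array, and Scd2 fell by 1.44 under CR (SE 0.23, adjusted p = 0.000132) and by 1.61 under resveratrol (SE 0.23, adjusted p = 8.42e-05). The spiked-in poly-A transcripts divide the muscle arrays in the same way, with the diets at 9.16 to 10.6 and the controls at 6.4 to 8.1. Their level and the diet cannot be told apart in muscle.

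Under resveratrol, Acly, Me1, Fasn and Elovl6 fell in muscle along with Scd2 and Srebf1. Of the 10 members 6 fell and none rose, where 18.7% of all genes changed, with a median of -1.23 against 0.07 over all genes. Elovl6, the elongase, had signals of 252, 201, 73.2, 1122 and 825 in old resveratrol muscle, against 1203, 1529.5, 3359, 3082 and 1834 in old control muscle. The groups did not overlap, and Elovl6 fell to 0.158 of the old control level, a difference of -2.66 (SE 0.64, adjusted p = 0.006). Acly had signals of 1102, 948, 904, 3425 and 1507 in old resveratrol muscle, against 3289, 5727, 6333, 6059 and 3579.6 in old control muscle, and fell by 1.81 (SE 0.41, adjusted p = 0.00416). Here 1 resveratrol array reached into the control range. Fasn had signals of 1644, 955, 769, 6042 and 2133 in old resveratrol muscle, against 2652, 4202, 7113, 6761 and 4225 in old control muscle, and fell by 1.44 (SE 0.46, adjusted p = 0.0311). Replicate 4 of the resveratrol group was again the highest of its group, at the level of the control arrays. The call of Fasn was lost without old control replicate 3 or 4 or old resveratrol replicate 1, 2 or 3, at adjusted p values of 0.0591 to 0.0988. Me1 had signals of 3206, 3754, 3557, 3996 and 3279 in old resveratrol muscle, against 4552, 6847, 10059, 9469 and 8512 in old control muscle, with no overlap, and fell by 1.10 (SE 0.26, adjusted p = 0.00539). Averaged over its probe sets, Me1 differed by -0.67 (adjusted p = 0.06).

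The other resveratrol differences in muscle were -0.69 (adjusted p = 0.0583) for Acaca, -1.32 (adjusted p = 0.0846) for Thrsp, -0.64 for Scd1 and 0.17 for Acacb. Without old resveratrol replicate 4, the adjusted p was 0.0196 for Acaca and 0.049 for Thrsp. It was also past the threshold for Acaca without old control replicate 1 (0.0355) or old CR replicate 4 (0.0437), and for Acaca (0.0347) and Thrsp (0.0158) without old CR replicate 2, which enters only through the shared spread. Among all genes 18.7% changed under resveratrol in muscle. The mean of the adipocyte markers was no lower than in old controls. Of 10 past the cut-off 0 changed under resveratrol by limma (0 at an unadjusted p under 0.05, median difference 0.49), and their mean log2 signal was 10.35 ± 0.13 in old resveratrol muscle, against 9.94 ± 0.38 in old control muscle. Their summed signal ranged over 89274 to 100161 in old resveratrol muscle, against 77534 to 101694 in old control muscle. A sum follows its brightest markers, and skeletal muscle itself makes Car3, which is among these. Of 4 markers of brown adipocytes past the cut-off, which the defining Ucp1 did not reach, 0 changed either by limma (1 at an unadjusted p under 0.05, Ppargc1a), with a median difference of -0.26. Their mean log2 signal was 9.77 ± 0.34 in old resveratrol muscle, against 9.87 ± 0.27 in old control muscle, and the summed signal of all 5 ranged over 23151 to 42385 and 35879 to 43946 in the same order. This sum follows its brightest markers, and muscle fibres also express Ppargc1a, so it is no measure of brown adipocytes alone. Of 3 Schwann cell markers 2 fell under resveratrol, the myelin genes Mbp by 0.96 and Pmp22 by 0.55, with summed signals of 3945 to 6667 in old resveratrol muscle, against 6612 to 10620.4 in old control muscle. The part of these markers in the result was not tested.

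Under CR, 2 of 10 members changed in muscle, where 31.2% of all genes did, and the median was 0.29, against 0.10 over all genes. Apart from Me1 and the pair that fell, the members had means near or above the old controls, with wide spread. Thrsp had signals of 3925, 30963, 9093, 1884 and 3369.7 in old CR muscle, against 2115, 3688, 4795, 4235 and 2502 in old control muscle, a difference of 0.83 (adjusted p = 0.235). Replicate 2 of the CR group stood far above the others for Thrsp. It also had the highest signal of its group for Fasn, Elovl6, Acly, Me1 and Scd1, the lowest for Acacb, and the highest adipocyte marker score of all muscle arrays. Without it, 4 members changed: Me1 fell by 0.96 (adjusted p = 0.000541) and Acacb rose by 0.54 (adjusted p = 0.0237), in addition to Scd2 and Srebf1. Me1 also passed without old control replicate 1 (adjusted p = 0.0203). Fasn differed by 0.49 under CR, Acaca by 0.49, Elovl6 by 0.49, Scd1 by 0.44 and Acly by -0.06, none past the threshold. Adipocyte markers averaged 10.77 ± 0.76 in old CR muscle, and 3 of 10 rose. Their summed signal was 98958 to 189394 there and 53133 to 78002 in young control muscle, whose mean was 9.69 ± 0.43.

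The 2 diets differed from each other in muscle, where only 0.561% of all genes did. Elovl6 had signals of 3664, 8685, 3523, 942 and 1789 in old CR muscle, against 252, 201, 73.2, 1122 and 825 in old resveratrol muscle. CR exceeded resveratrol by 3.15 (SE 0.64, adjusted p = 0.0241), which is 8.88-fold. Acaca had signals of 1927, 2517, 1949, 1006 and 1242 in old CR muscle, against 576, 592, 691, 1209 and 705 in old resveratrol muscle, and CR exceeded resveratrol by 1.18 (SE 0.25, adjusted p = 0.0298). The ranges overlap for both genes only through the highest resveratrol array and the lowest CR array. Thrsp differed by 2.15 (adjusted p = 0.0626), Fasn by 1.93 (adjusted p = 0.0529), Acly by 1.75 (adjusted p = 0.0529) and Scd1 by 1.08. The median of the members was 1.13, against 0.03 over all genes. The spiked-in poly-A level was 9.92 ± 0.52 in old CR muscle and 10.03 ± 0.17 in old resveratrol muscle, and 0 of 10 adipocyte markers differed between them by limma (5 at an unadjusted p under 0.05, median difference 0.41). Of 4 brown adipocyte markers 1 was higher under CR, Ppargc1a, a coactivator that muscle fibres also express, by 1.25 (adjusted p = 0.009), and their median difference was 0.87. Their part in the result was not tested. The count of members was fragile, at 5 without old CR replicate 4 or old resveratrol replicate 4, 4 without young control replicate 2, 1 without old CR replicate 1 or 2 or old resveratrol replicate 5, and 0 without old CR replicate 3 or old resveratrol replicate 1, 2 or 3. The call of Elovl6 was lost without old CR replicate 3 or old resveratrol replicate 1, 2 or 3 (0.0532 to 0.0733), and that of Acaca without any of these or old CR replicate 1 or 2 or old resveratrol replicate 5 (0.0504 to 0.0904). Fasn, Acly and Thrsp passed without old CR replicate 4 (0.0192, 0.0187 and 0.0192) or old resveratrol replicate 4 (0.0144, 0.0203 and 0.0427). Fasn and Acly also passed without young control replicate 2 (0.046 and 0.0424), Acly without young control replicate 4 (0.0498) and Fasn without old control replicate 1 (0.0486). Without old CR replicate 2, the array with the highest adipocyte markers, Elovl6 kept its call at 2.75 (adjusted p = 0.0419). The methods' t-test (0.213 for Elovl6 and 0.189 for Acaca) and a fit of only the 2 diets (0.105 and 0.098) ended both calls, and averaged probe sets ended that of Acaca (0.0721).

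In neocortex, Srebf1, Me1, Acly, Acaca, Fasn and Elovl6 fell under CR and Thrsp rose, in all 7 of 9 members tested, where 30.6% of all genes changed, and the median was -0.29, against -0.03 over all genes. This count depended on reading each gene from its brightest probe set. The averages that follow take in all probe sets of a gene, also those under the cut-off. With the probe sets of each gene averaged 2 members changed, Srebf1 and Fasn, and the adjusted p was 0.0631 for Elovl6, 0.0665 for Me1, 0.404 for Acaca, 0.854 for Acly and 0.684 for Thrsp. Srebf1 had signals of 682, 758, 839.7, 1182 and 793 on the old CR arrays, 819, 985, 1053, 885 and 1074 on the old resveratrol arrays, 1495, 1512, 1325, 1705 and 1327 on the old control arrays and 1035, 828, 987, 938 and 671 on the young control arrays. All old control arrays lay above all others. Srebf1 was higher in old control than in young control neocortex by 0.73 (SE 0.13, adjusted p = 0.00481), the only member of 9 that changed with age, where 1.46% of all genes did. It fell by 0.81 under CR (SE 0.13, adjusted p = 5.86e-05) and by 0.61 under resveratrol (SE 0.13, adjusted p = 0.00116), against the same old control arrays.

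Me1, the malic enzyme, had signals of 971, 845, 981, 970.3 and 878 in old CR neocortex and 996, 944, 1103, 867 and 864 in old resveratrol neocortex, against 1257, 1366, 1128, 1583 and 1291 in old control neocortex. Neither diet overlapped with the controls, and Me1 fell by 0.51 under CR (adjusted p = 0.000395) and by 0.47 under resveratrol (adjusted p = 0.000948). Averaged over its probe sets, its resveratrol difference was -0.27 (adjusted p = 0.0823). Acly fell under both, by 0.22 (adjusted p = 0.0233) and 0.21 (adjusted p = 0.0405). The calls of Acly were lost under CR without old control replicate 2 (0.0524) or old CR replicate 2 (0.0839), and under resveratrol without old control replicate 1, 2, 3 or 4 or old resveratrol replicate 3 or 4, at 0.062 to 0.117. Fasn had signals of 1455, 1324, 1459.8, 1549 and 1407 in old CR neocortex, against 1988, 1745, 1780.4, 1808 and 1727 in old control neocortex, with no overlap, and fell by 0.33 (SE 0.10, adjusted p = 0.0165). Acaca, which makes its substrate, fell by 0.29 (adjusted p = 0.0243), a call lost without old control replicate 1 (0.057) or old CR replicate 5 (0.0681). Under resveratrol, Fasn differed by -0.11 (interval -0.32 to 0.10) and Acaca by -0.07 (interval -0.27 to 0.13).

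Elovl6 took opposite directions under the diets when read from its brightest probe set. Its signals were 1124, 1001, 1000.3, 1103 and 980.0 in old CR neocortex and 1562, 1661, 1591, 1408 and 1509 in old resveratrol neocortex, against 1444, 1304, 1245, 1286 and 1328 in old control neocortex. CR arrays lay below every control array and resveratrol arrays almost all above them. Elovl6 fell by 0.34 under CR (SE 0.07, adjusted p = 0.000544) and rose by 0.23 under resveratrol (SE 0.07, adjusted p = 0.0161). CR was lower than resveratrol by 0.57 on the log2 scale (adjusted p = 0.000158). A second probe set of Elovl6 gave -0.27 under CR and a difference of less than 0.01 under resveratrol, neither past the threshold. With averaged probe sets the resveratrol difference turned to -0.27 (adjusted p = 0.373), the CR difference was -0.51 (adjusted p = 0.0631) and the call between the diets was lost (-0.24, adjusted p = 0.541). Scd2, the only other of 9 members that differed between the diets (9.28% of all genes did), was lower in CR than in resveratrol neocortex by 0.22 (adjusted p = 0.0297), and it lost this call without old CR replicate 1, 2, 3 or 5 or old resveratrol replicate 1 or 3, at 0.0546 to 0.0668. Scd2 differed from old controls by -0.13 under CR (adjusted p = 0.122, and 0.0487 without old CR replicate 4) and by 0.09 under resveratrol, and Scd1 by -0.10 and 0.02. Scd2 also passed under CR in 2 of the 9 alternatives other than leaving out an array. The differences there were -0.30 and -0.21, at limma adjusted p values of 0.00798 to 0.033. Fasn was lower in CR than in resveratrol neocortex by 0.22 (adjusted p = 0.177, and 0.0487 without old resveratrol replicate 5).

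Thrsp, read from its brightest probe set, rose under both diets in neocortex. Its signals were 781, 892, 759, 909.6 and 688 in old CR neocortex and 790.2, 722, 879, 932 and 677 in old resveratrol neocortex, against 616, 462, 589, 712 and 694 in old control neocortex. The ranges overlap at their edges, and Thrsp rose by 0.40 under CR (SE 0.11, adjusted p = 0.00989) and by 0.39 under resveratrol (SE 0.11, adjusted p = 0.0139). Without old control replicate 2, its lowest, the adjusted p under resveratrol was 0.0549. With averaged probe sets the CR difference turned to -0.15 (adjusted p = 0.684) and the resveratrol difference was 0.22 (adjusted p = 0.551), and by the methods' t-test the adjusted p was 0.063 and 0.0865. In all, resveratrol raised 2 and lowered 3 of 9 members, where 26.2% of all genes changed, with a median of -0.07 against -0.01 over all genes. Without old control replicate 2 the count was 3 in place of 5. Acacb, not tested here, had signals of 43.4, 53.7, 28.9, 47.5 and 53.5 in old CR neocortex, against 5.61 to 13.1 in old resveratrol neocortex, 7.06 to 21.8 in old control neocortex and 5.44 to 16.6 in young control neocortex, all under the cut-off of 57.3. Defining adipocyte markers were near the background in neocortex, with Adipoq at most at 22.2 and Lep at most at 25.5 on any array. Myelin markers, all 9 of them past the cut-off, had summed signals of 45435 to 59329 in old CR, 51076 to 61098 in old resveratrol, 47762 to 55274 in old control and 44860.1 to 53703 in young control neocortex. Under CR 1 of them rose and 2 fell, and under resveratrol 1 rose. Markers of astrocytes, all 6 of them past the cut-off, had a mean log2 signal of 11.52 ± 0.12 in old CR, 11.74 ± 0.11 in old resveratrol, 11.94 ± 0.13 in old control and 11.57 ± 0.18 in young control neocortex (SD, n = 5 each), highest in old controls as Srebf1 was. Under CR 2 of them fell, under resveratrol 1 rose and 1 fell, and with age 1 rose. Of all genes 30.6%, 26.2% and 1.46% changed in these comparisons. The median differences of the 6 markers were -0.17, -0.18 and 0.13 in the same order. The astrocyte filament gene Gfap moved much further than these medians, and so weighs on the mean. It rose by 1.76 with age and fell by 1.84 under CR and by 1.17 under resveratrol. The part of these markers in the result was not tested, nor that of the beta-actin values, which were higher under both diets than in the old controls. The poly-A level ranged over 8.48 to 9.58 in old CR, 9.46 to 10.04 in old resveratrol and 8.49 to 9.25 in old control neocortex. Its part was not tested either.

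The difference of a contrast between tissues was tested directly. The age difference of 6 of 10 members was larger in muscle than in heart, where 5.27% of all genes differed: by 3.86 (SE 0.89, adjusted p = 0.00527) for Elovl6, by 2.58 for Fasn, 2.50 for Thrsp, 2.42 for Acly, 2.37 for Scd1 and 1.01 for Scd2. All 6 had negative differences in heart and positive ones in muscle by their brightest probe sets. The dimmer probe sets of Scd1 and Scd2 were lower with age in muscle too, none past the threshold, at -0.67 for 1415965_at of Scd1 and at -0.33 for 1415823_at and -1.94 for 1415824_at of Scd2. With the probe sets of each gene averaged, the calls of Elovl6 and Fasn remained, and those of Scd1 (adjusted p = 0.0565), Thrsp (0.0585), Acly (0.0957) and Scd2 (0.135) were lost. The resveratrol difference was lower in muscle than in heart for 8 members and higher for Acacb, where 16.4% of all genes differed. The gap was -4.67 (SE 0.89, adjusted p = 0.000104) for Elovl6 and -2.68 (SE 0.52, adjusted p = 0.000161) for Acly, and only Scd1 did not pass (-1.87, adjusted p = 0.0539). Averaging ended the calls of Acaca (adjusted p = 0.105), Me1 (0.155) and Acacb (0.54), and Scd1 passed with it (0.0261) and with quantile normalization (0.0492). Under CR 2 members differed, Srebf1 by -1.08 (SE 0.20, adjusted p = 3.67e-05) and Me1 by -0.93, where 20.3% of all genes did. With averaged probe sets Me1 lost its call (-0.38, adjusted p = 0.495) and Scd2 passed, at -1.86 (adjusted p = 6.04e-06). In each of these gaps heart is read against the old control hearts, which stand apart in beta-actin, and muscle under the diets against arrays with a lower poly-A level.

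Neocortex was set against the other tissues in the same way. Against muscle, 0 of 9 members passed the limma threshold for age (0.299% of all genes did), with 2 at an unadjusted p under 0.05, 2 under CR (17.3% of all genes), which were Scd2 at 1.31 and Srebf1 at 0.63, and 3 under resveratrol (10.5%), which were Elovl6 at 2.89, Scd2 at 1.70 and Acly at 1.61. Elovl6 (adjusted p = 0.102) and Acly (0.251) lost these calls with averaged probe sets. With quantile normalization Srebf1 passed for age, at 0.81 (adjusted p = 0.0278). Against heart, 0 of 9 members passed the limma threshold in any contrast, where 3.25% of all genes did for age, 8.03% under CR and 4.81% under resveratrol. At an unadjusted p under 0.05 there were 7 for age, 4 under CR and 2 under resveratrol. Scd1 came nearest for age, at 2.09 (SE 0.69, adjusted p = 0.0825). With averaged probe sets Scd1 (2.70, adjusted p = 0.0388) and Scd2 (1.55, adjusted p = 0.00131) passed for age against heart.

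The spread between mice of a group ran along the adipocyte markers in heart. For each array the deviation of a member from its group mean was set against the deviation of the mean log2 signal of the adipocyte markers past the cut-off, over 20 arrays, with 100000 permutations within groups (two-sided) and adjustment over 29 relations. In heart 7 of 10 members passed by Pearson's r, all positive, and 8 by Spearman's rho. Of 13275 genes tested, the markers left out, 0.196% had an r at least as far from 0 as the weakest of the 7. Pearson's r was 0.98 for Scd1 (Spearman's rho 0.97), 0.96 for Elovl6 (rho 0.95), 0.95 for Fasn (rho 0.95) and 0.91 for Thrsp (rho 0.92), each with a permutation p of 1e-05, the smallest that can be given. Without old control replicate 1 and young control replicate 2, the arrays farthest from the median of the markers, r was 0.97, 0.95, 0.95 and 0.94 in the same order. Acly, Acaca and Me1 had an r of 0.87, 0.83 and 0.75, and Scd2 one of 0.45 (adjusted permutation p = 0.115) with a rho of 0.57 (adjusted permutation p = 0.0451). Srebf1 had an r of 0.20 (rho 0.19, permutation p = 0.449 for r and 0.467 for rho) and Acacb of 0.43 (rho 0.41, permutation p = 0.0745 and 0.0941). These are the 2 members that fell under both diets in heart.

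In muscle 6 positive and 1 negative relation passed among 10 by Pearson's r and 4 by Spearman's rho, those of Scd1, Thrsp, Fasn and Srebf1. The weakest r that passed was 0.50, and 22.7% of 12821 genes had one as far from 0. Thrsp had an r of 0.81 (rho 0.70, adjusted permutation p = 0.00228 and 0.0129), and 0.73 without old CR replicate 2 and young control replicate 4. Scd1 had 0.65 (rho 0.70, adjusted permutation p = 0.00451 and 0.00446) and Fasn 0.52 (rho 0.54, adjusted permutation p = 0.0294 and 0.0439). The negative one was Srebf1, at -0.57 (rho -0.61, adjusted permutation p = 0.0412 and 0.0439), and -0.31 without the same 2 arrays, so that it rests in part on them. Acacb had -0.63 (rho -0.46, permutation p = 0.0674 and 0.0415) and 0.10 without them, and rests on them. In neocortex, where 5 markers passed the cut-off and Adipoq, Lep and Fabp4 did not, Fasn had -0.71 (rho -0.61, adjusted permutation p = 0.0142 and 0.0439) and -0.61 without young control replicate 2 and old resveratrol replicate 3. Scd1 had -0.58 (rho -0.51, adjusted permutation p = 0.0416 and 0.0867). An r as far from 0 as that of Scd1 was found for 3.47% of 13052 genes.

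**Figure D3:**
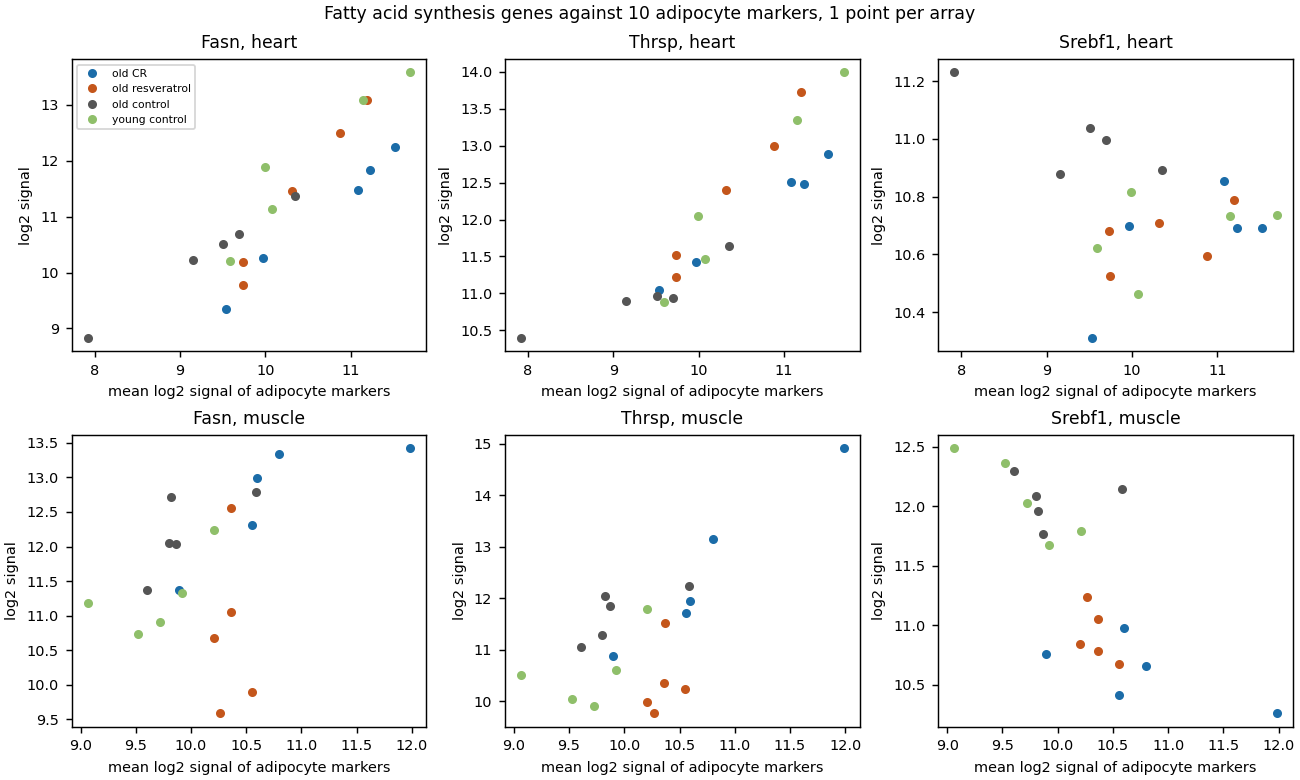
Log2 signal of Fasn, Thrsp and Srebf1 (vertical axis) against the mean log2 signal of 10 adipocyte markers (horizontal axis), in heart (upper row) and muscle (lower row), with 1 point for each array and a colour for each group. In heart Fasn and Thrsp climb with the markers across all groups. In muscle the mean of Fasn is lower in old resveratrol than in old control arrays, and the ranges overlap. The mean marker level is 10.35 and 9.94 in the same order.

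The members that varied most like Fasn within groups were other members in heart and muscle. By the correlation of deviations from group means over 20 arrays, the 5 genes nearest to Fasn among 13285 in heart were Scd1 (r = 0.97), Thrsp (0.97), Acly (0.95), the kinase subunit Prkar2b (0.94) and haptoglobin, Hp (0.93). In muscle they were Acly (0.91), Scd1 (0.91), Elovl6 (0.90), the transketolase Tkt (0.86) and the citrate carrier Slc25a1 (0.82), among 12831. In neocortex they were hexokinase Hk1 (0.91), Hivep3 (0.90), Ticam1 (0.90), Mast3 (0.89) and Rbm42 (0.89), and the nearest member was Scd1 at 0.72. Srebf1 stood apart from Fasn in all 3 tissues, at 0.32 in heart, -0.23 in muscle and 0.20 in neocortex. These are descriptions over arrays that share tissue and scaling.

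Probe sets of 1 gene did not always move alike, above all for the desaturases. For Scd1, the brighter probe set 1415964_at differed by -1.77 with age in heart and by 1.41 under CR, neither past the threshold over all probe sets, whereas 1415965_at fell by 3.16 with age (adjusted p = 0.00408) and rose by 2.38 under CR (adjusted p = 0.0185). For Scd2, the brightest probe set 1415822_at differed by -0.32 with age in heart, and 1415823_at and 1415824_at fell by 1.70 and 1.88 (adjusted p = 0.000466 and 0.000304). Under resveratrol in heart the first gave -0.11 and the second rose by 0.89 (adjusted p = 0.0472), an opposite sign. Under CR in heart 1415823_at and 1415824_at had differences of 0.64 (adjusted p = 0.137) and 0.77 (adjusted p = 0.092), against -0.67 for 1415822_at. In muscle 1415822_at and 1415823_at of Scd2 fell together, by 1.44 and 2.77 under CR with resveratrol differences of -1.61 and -2.94, and 1415824_at differed by -0.62 and 0.03. Scd1 and Scd2 are close relatives, and whether their probe sets bind both transcripts was not examined here.

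**Figure D4:**
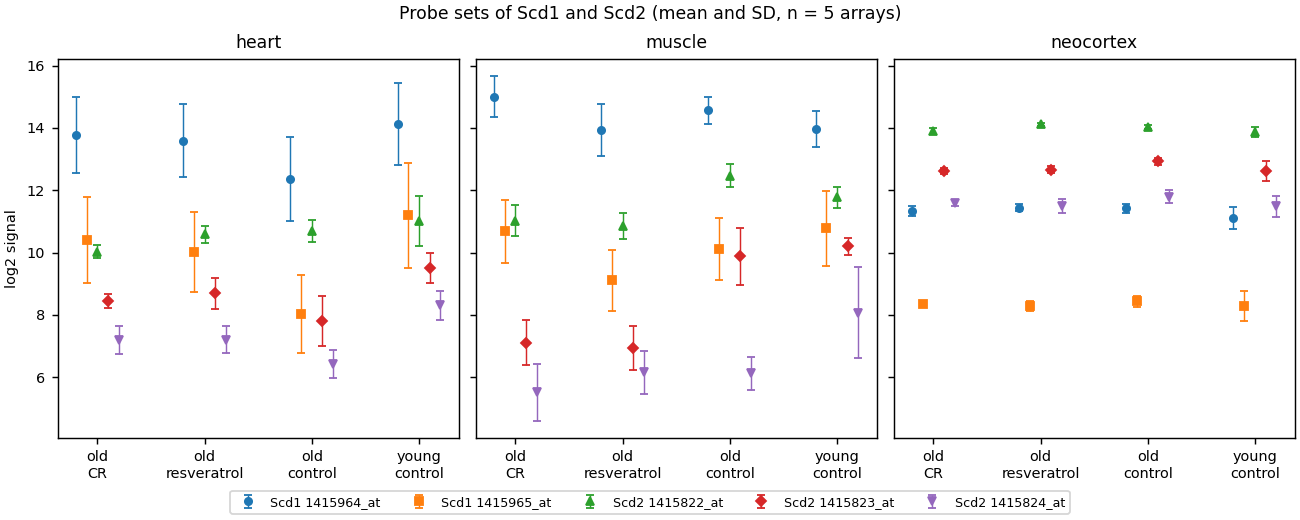
Mean log2 signal (vertical axis, bars are the SD of 5 arrays) of the 2 probe sets of Scd1 and the 3 of Scd2, by group (horizontal axis) in heart, muscle and neocortex. In heart the dimmer probe sets of both genes have their lowest mean in the old control group, unlike 1415822_at of Scd2, and in muscle 2 of 3 Scd2 probe sets are lower under both diets.

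Of the 6 probe sets of Acly, 1451666_at and 1425326_at fell together with age in heart (-1.38 and -1.66) and under resveratrol in muscle (-1.81 and -3.42), and 1439459_x_at gave -0.86 and -1.0, not past the threshold. In neocortex under resveratrol 1439459_x_at rose by 0.31 (adjusted p = 0.000815) while the other 2 fell by 0.21 and 0.51. For Me1, 1416632_at gave -0.24 under resveratrol in muscle and -0.05 under CR in neocortex, where 1430307_a_at, the probe set used above, fell by 1.10 and 0.51. Both probe sets of Elovl6 with higher signal fell under resveratrol in muscle, with differences of -2.66 and -2.63. Fasn and Srebf1 have 1 probe set each. The second probe set of Thrsp, 1422973_a_at, fell with age in heart (-1.61, adjusted p = 0.0249) and rose under CR (1.34) and resveratrol (1.37), and rose under both diets in neocortex (0.59 and 0.56). The second probe set of Acacb stayed under the cut-off in every tissue, and so did the third of Thrsp.

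Other genes of the pathway were counted from lists. Among 18 regulators of lipogenesis, 1 rose and 5 fell under CR in heart, 6 fell in muscle, and 2 rose and 6 fell in neocortex, and under resveratrol 1 rose and 3 fell, 4 fell, and 1 rose and 4 fell in the same tissues, at the background shares given above. Mid1ip1, the relative and partner of Spot 14, fell by 1.26 in heart, 1.10 in muscle and 0.46 in neocortex under CR and by 0.82 in muscle under resveratrol, and rose by 0.54 with age in heart. Lpin1, a phosphatidate phosphatase that also acts in the nucleus, fell by 1.06 and 0.74 in muscle, and Mbtps1, the protease that cuts SREBP precursors, by 0.70 and 0.62. Mlxipl, the carbohydrate-responsive factor ChREBP, fell under CR by 0.69 in heart, 0.67 in muscle and 0.58 in neocortex. Srebf2, which encodes SREBP-2, fell in neocortex by 0.62 under CR and 0.51 under resveratrol. With age 1 rose and 2 fell in heart, none changed in muscle and 1 rose in neocortex, the SREBP retention factor Insig1 (0.63).

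Of the other elongases and desaturases, 2 of 13 fell under CR in heart, 4 rose and 1 fell of 13 in muscle, and 3 rose and 4 fell of 14 in neocortex. Under resveratrol 2 rose and 2 fell in heart, 3 rose and 1 fell in muscle, and 4 rose and 3 fell in neocortex. Of all genes 22.0%, 31.2% and 30.6% changed under CR in heart, muscle and neocortex, and 17.5%, 18.7% and 26.2% under resveratrol. Fads1, a desaturase of polyunsaturated fatty acids, fell under both diets in all 3 tissues, under CR by 0.37 in heart, 0.69 in muscle and 0.55 in neocortex, and under resveratrol by 0.46, 1.10 and 0.40. It rose by 0.73 with age in muscle. The elongase Elovl5 fell under CR by 0.73 in heart and 0.43 in neocortex, and by 0.37 under resveratrol in heart. Hacd2, a dehydratase of elongation, rose in muscle by 1.42 under CR and 0.90 under resveratrol. Among 10 genes that supply acetyl-CoA and NADPH, CR was followed by 1 fall in heart, 1 rise in muscle and 2 falls in neocortex, and resveratrol by 1 rise and 1 fall in heart, 1 fall in muscle and 2 rises and 2 falls in neocortex. The citrate carrier Slc25a1 rose by 1.62 under CR in muscle and fell in neocortex by 0.53 under CR and 0.51 under resveratrol. Acss1, an acetyl-CoA synthetase of mitochondria, fell by 0.71 under CR in neocortex.

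Genes that act on acetyl-CoA carboxylase or on malonyl-CoA included several of the AMP-activated kinase. Of 14 tested in heart 3 rose and 3 fell under CR, of 13 in muscle 1 rose and 5 fell, and of 13 in neocortex 1 fell. Under resveratrol 1 rose and 1 fell in heart, 2 fell in muscle and 2 fell in neocortex. For these counts and those that follow, 22.0%, 31.2% and 30.6% of all genes changed under CR in the same order of tissues. Under resveratrol the shares were 17.5%, 18.7% and 26.2%. Cpt1a, the carnitine palmitoyltransferase that malonyl-CoA inhibits, rose by 1.35 under CR in heart and fell by 0.64 with age there. Prkaa1, a catalytic subunit of the kinase, fell in muscle by 1.17 under CR and 0.77 under resveratrol, and Stk11, the kinase that activates it, fell in heart by 0.71 and 0.95. Of glycerolipid synthesis genes, 2 of 16 fell under each diet in heart, 2 rose and 2 fell of 16 under CR in muscle, and 1 rose under resveratrol there. In neocortex 2 rose and 2 fell of 15 under CR and 3 rose and 2 fell under resveratrol. The triglyceride-forming Dgat1 rose by 1.21 under CR in muscle, and the acyltransferase Agpat3 fell in heart by 0.83 under CR and 0.88 under resveratrol. Of 8 genes of mitochondrial fatty acid synthesis at most 2 changed in any diet comparison, and Cbr4, its ketoacyl reductase subunit, rose under CR by 0.24 in heart and 0.43 in muscle. Of 12 cholesterol synthesis genes, 2 rose and 2 fell under CR in heart, 2 rose in muscle, and 2 rose and 2 fell in neocortex, with Fdps at 0.76 in heart and 0.52 in neocortex. Under resveratrol 2 rose in heart, 1 fell in muscle, and 1 rose and 2 fell in neocortex.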

How the data were processed

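Total RNA of 60 mouse tissues was hybridised by the authors to Affymetrix Mouse Genome 430 2.0 arrays, 1 mouse an array. The deposited values are linear signals of GCOS 1.2 (Affymetrix), which summarises the probes of a probe set into 1 signal and scales each array, here to a trimmed mean of 500 with 2% trimmed at each end. Such scaling assumes like total signal on every array, and low signals carry much background.

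Probe sets with 1 gene symbol in the platform annotation were used (34945 of 45101). Signals were floored at 1 and log2 transformed. Each gene was represented by its brightest probe set, and genes under the 40th percentile of mean signal in a tissue were dropped. This kept 13285 genes for heart, 12831 for muscle and 13057 for neocortex. Groups were taken from the labels. All 4 groups of a tissue were fitted with limma 3.58.1 (lmFit and eBayes with an intensity trend) in R 4.3.3, with Benjamini-Hochberg adjustment over all genes of the tissue and a threshold of 0.05. The study's methods used t-tests and name no adjustment for the number of genes. Such t-tests were run here as an alternative, on log2 signal and with the same adjustment and threshold as limma. A call that they end here is therefore no statement of what the study called. Tissue differences came from 1 model of 60 arrays (15035 genes). The fits were tested on simulated data. Array number limits the precision, at 5 mice a group. Relations used Python 3.11.15 with scipy 1.17.1.

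The named genes are all 10 members, up to 4 called members of each pathway list with the largest difference in a comparison, and the 5 genes most like Fasn. The members, lists, markers and tests were chosen with earlier results of these data known. Alternatives changed the normalization, offset, filter, test, samples, probe sets and replicate block, and left out single arrays. Replicate numbers did not pair the samples.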

Additional observations from a re-analysis of the deposited data

Results flagged for a closer look

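On 5 arrays a member lay far from the rest of its group, with a gap to its nearest neighbour of over 0.710 of the range of the group. Chance alone gives about 1 such array in 20 groups, and 116 groups of member, tissue and diet were examined. The log2 signal of Elovl6 on replicate 1 of the old control hearts was 4.45, against 7.96 to 9.01 on the other 4 arrays of its group. Me1 on replicate 4 of the old control hearts was at 11.13, against 11.54 to 11.61 on the other 4 arrays of its group. Acacb on replicate 2 of the old CR muscles was at 10.26, against 11.99 to 12.44 on the other 4 arrays of its group. Acaca on replicate 4 of the old resveratrol muscles was at 10.24, against 9.17 to 9.46 on the other 4 arrays of its group. Scd2 on replicate 4 of the old CR neocortices was at 14.04, against 13.81 to 13.88 on the other 4 arrays of its group.

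The age difference was more positive in muscle than in heart, by a test of the difference itself in limma, by 3.86 (adjusted p = 0.00527) for Elovl6, 2.58 (adjusted p = 0.0265) for Fasn, 2.50 (adjusted p = 0.0165) for Thrsp, 2.42 (adjusted p = 0.00293) for Acly, 2.37 (adjusted p = 0.0315) for Scd1 and 1.01 (adjusted p = 0.0404) for Scd2. The CR difference in muscle minus that in heart was -1.08 (adjusted p = 3.67e-05) for Srebf1 and -0.93 (adjusted p = 0.0401) for Me1. It was higher in neocortex than in muscle by 1.31 (adjusted p = 0.00158) for Scd2 and 0.63 (adjusted p = 0.019) for Srebf1.

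The resveratrol difference in muscle minus that in heart was -4.67 (adjusted p = 0.000104) for Elovl6, -2.72 (adjusted p = 0.00222) for Thrsp, -2.68 (adjusted p = 0.000161) for Acly, -2.52 (adjusted p = 0.0116) for Fasn and -1.50 (adjusted p = 0.000311) for Scd2. It was -1.40 (adjusted p = 0.00198) for Me1, -1.19 (adjusted p = 0.0328) for Acaca, -0.79 (adjusted p = 0.00288) for Srebf1 and 1.63 (adjusted p = 0.00422) for Acacb, and Acacb is the only one of these in which muscle was the higher. The resveratrol difference in neocortex minus that in muscle was 2.89 (adjusted p = 0.0255) for Elovl6, 1.70 (adjusted p = 0.0001) for Scd2 and 1.61 (adjusted p = 0.037) for Acly.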

How the results depend on the processing

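The counts of members that changed depended on single arrays and on the choice of probe set. With 1 array left out they ranged over 1 to 7 for age, 1 to 3 for CR, 1 to 4 for resveratrol and 0 to 1 for CR against resveratrol in heart, and over 0 to 0, 2 to 4, 5 to 8 and 0 to 5 in muscle and 1 to 1, 6 to 8, 3 to 5 and 1 to 3 in neocortex. By the methods' t-test, adjusted, the counts were 0 for age and 0 for CR against resveratrol in heart, 0 for CR against resveratrol in muscle, and 0 for age and 3 for resveratrol in neocortex. With only the 2 groups compared they were 2 for age, 4 for CR and 2 for CR against resveratrol in heart and 0 for CR against resveratrol in muscle. Counting a member where any of its probe sets passed gave 7 for age and 4 for CR in heart. Averaging the probe sets of each gene gave 0 for CR against resveratrol in heart, 1 for it in muscle, and 2 for CR, 1 for resveratrol and 0 for their difference in neocortex. For CR against resveratrol in muscle, quantile normalization gave 5, an offset of 32 gave 4 and the filter at the 60th percentile gave 4. The absence of young control replicate 4 and old control replicate 1, each the least correlated with its group, gave 4 there. Without young control replicate 1 and old control replicate 4, age in heart gave 2. The other counts stayed within 1.5 times. Calls of tissue differences changed with averaged probe sets. With quantile normalization those of Scd1 under resveratrol (muscle minus heart) and of Srebf1 with age (neocortex minus muscle) changed.

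In 3 cases a difference turned round. With every probe set tested on its own, Scd2 under resveratrol in heart was read from 1 probe set, that with the smallest p. It gave 0.89, against -0.11 for the brightest. With averaged probe sets, Thrsp under CR in neocortex was -0.15 and Elovl6 under resveratrol there was -0.27. The averages take in all probe sets of a gene, also those under the cut-off, as the third of Thrsp was. The cause was not tested.

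Within a tissue, samples of different groups with the same replicate number did not deviate together. The median correlations were 0.01 for heart, 0.01 for muscle and 0.03 for neocortex. With the replicate block the counts were 5, 3, 4 and 1 in heart for age, CR, resveratrol and CR against resveratrol, 0, 2, 6 and 3 in muscle, and 1, 7, 4 and 2 in neocortex.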
